A study of Mus musculus with 24 samples.

Results

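Distal lung tissue, cut from the lobes by hand, of 6 mice given BLM together with EXT9 was compared with that of 6 saline controls, 12 of the 24 arrays of the study, over all genes on the array. The mice were assigned to groups by their labels alone. Their array runs were read from the measured values, and the comparison and the gene lists were chosen with earlier results of these data known. All were female C57BL/6 mice aged 12.5 weeks. EXT9-treated mice received BLM s.c. at 50 IE per dose, 3 times per week for 2 weeks, and EXT9 p.o. daily at 30 mg/kg, whereas saline controls received saline s.c. and the Tween80 vehicle (2.5% w/v) p.o. The comparison therefore holds BLM and EXT9 together, which cannot be told apart within it, and no group received EXT9 without BLM. The 6 mice given BLM with vehicle (BLM) and the 6 given BLM with EXT5 at the same dose served for comparison only.

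BLM is an anti-tumor glycopeptide that breaks DNA strands, and repeated administration to mice is used as a model of pulmonary fibrosis. Strand breaks activate p53, whose target *Cdkn1a* encodes the cell cycle inhibitor p21. EXT9 is an antagonist of the 5-HT2B receptor, a receptor for serotonin found on fibroblasts and smooth muscle. Distal lung is mostly gas-exchanging alveoli, lined by flat type 1 cells and surfactant-secreting type 2 cells, with small airways that carry ciliated and club cells and a coat of smooth muscle.

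Signals of 45281 probes were deposited as quantile normalized intensity, and levels are given here as log2 of that signal, 1 array per mouse. Levels of different genes are not compared, since each probe binds with its own strength. All values fell into 2 sets with 1 sorted distribution each, taken as the 2 array runs: saline replicates 1, 3 and 5 lie in the first run, with a median signal of 110, and saline replicates 2, 4 and 6 in the second, at 103, with all EXT9 arrays. Each comparison is therefore given in a fit of all 24 arrays and in a fit of the 18 second-run arrays, in which 3 saline controls face 6 EXT9-treated mice, and "called" means a Benjamini-Hochberg adjusted p under 0.05 in limma. Rows of 738 probes in which first-run values appear to stand at other probes were left out, and 22121 probes covering 11782 named genes were tested. The type 2 cell marker *Sftpc*, which defines distal lung, was high on every array of both groups, at 13.73 to 14.63, with overlapping groups. Saline replicate 6 stood apart. Its correlation with the median of saline replicates 2 and 4, the other saline arrays of its run, was r = 0.9736. This was the lowest of the 24 arrays, each set against the others of its group and run, which differ in number. The airway and muscle genes of saline replicate 6 lay at the level of the EXT9-treated mice, while its *Cdkn1a* level of 9.1 lay with the saline controls. Counts of list members called without it, or without another mouse, are given beside the lists where they differ most from the count over all 12 mice. In such bulk tissue, fewer cells of a type and less RNA per cell cannot be told apart.

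On all arrays 5186 probes (23.4% of those tested) were called, 1202 higher (5.43%) and 3984 lower (18%) in EXT9-treated mice. The second-run fit called 1403 probes (6.34%), 736 higher (3.33%) and 667 lower (3.02%), and adding the array run to the all-array fit gave 3575 (16.2%), 1711 higher (7.73%) and 1864 lower (8.43%). Thus 76.8% of the calls were lower on all arrays and 47.5% in the second run, and the median change over all tested probes was -0.06 and -0.0047 on the log2 scale. With each array centred on its median, the all-array calls divided into 2019 higher and 2865 lower, and after joint quantile normalization into 2293 and 2590. A total of 1164 probes (5.26%) were called in both fits, 504 higher (2.28%) and 660 lower (2.98%), for 417 and 520 genes with 1 gene in both sets, and no probe was called in opposite directions. Counting 1 probe per gene, 364 genes (3.09%) were called higher and 395 (3.35%) lower in both fits, and list counts are read against these shares. Of these 11782 genes, 7707 had negative and 4048 positive changes on all arrays. In the second run the numbers were 5947 and 5808, and signs within lists are read against them. Where a pair of log2 changes is given, the first is from all arrays and the second from the second run, with the SE after ±, and genes said to rise or fall were called in both fits. The levels of all 6 treated mice lay above those of all 6 controls for 306 probes (1.38%) and below them for 790 (3.57%), of which 229 and 396 were called in both fits. A change of at least 2-fold in both fits was seen for 10 genes higher and 14 lower. Leaving out saline replicate 6 raised the count in both fits to 2426 probes (832 higher, 1594 lower), whereas leaving out saline replicate 2 or 4 lowered it to 271 or 387 and leaving out EXT9 replicate 4 lowered it to 762. Of the 1164 probes, 196 (126 higher, 70 lower) stayed called in both fits whichever of the 12 mice was left out. Of the genes said below to rise or fall, *Col6a2*, *Dnaic1*, *H2-DMb2*, *Rpl30* and *Zmat3* were called in both fits in 4 of the 12 fits that left out 1 mouse, *Gins2*, *Ifit2*, *Aoc1*, *Lyz2*, *Riiad1*, *Col6a1*, *Tbx21* and *Jund* in 5, and *Ltbp4*, *Col4a4*, *Hp*, *Myh11* and *Rsph4a* in 6.

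**Figure D1:**
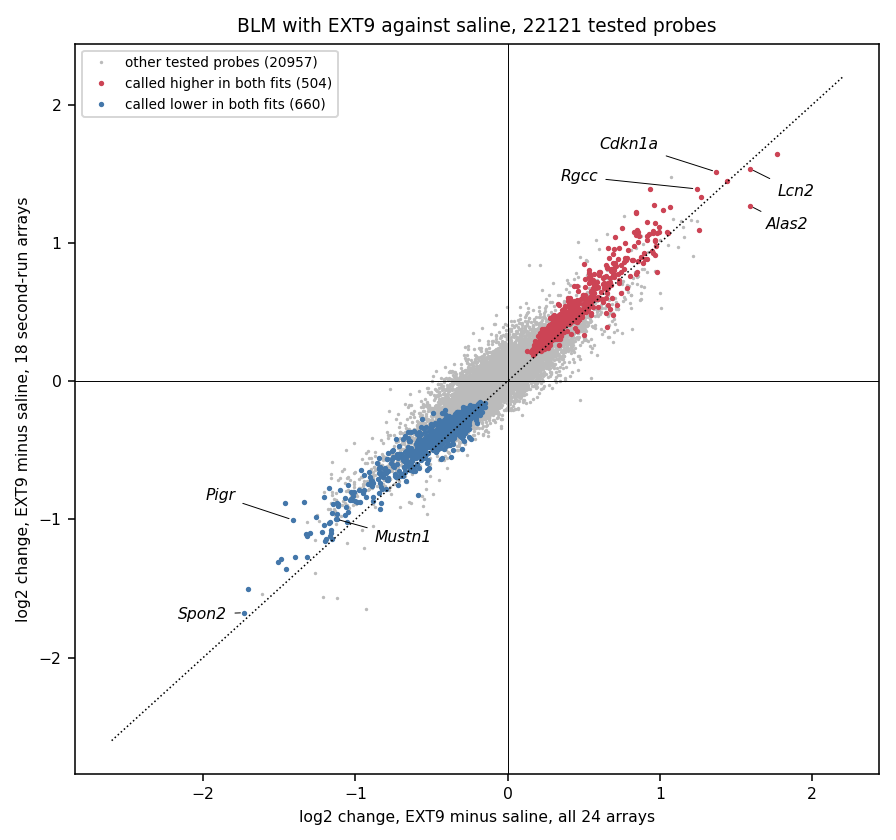
Log2 change between EXT9-treated mice and saline controls for each of the 22121 tested probes, on all 24 arrays (x axis) and on the 18 second-run arrays (y axis); red and blue points are the 504 and 660 probes called higher and lower in both fits, and the dotted line marks equal change. *Spon2* has the lowest values on both axes among the blue points, at -1.73 and -1.68.

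Of 19 tested p53 target genes, 6 rose in EXT9-treated mice and none fell, and the largest increase was that of *Cdkn1a*. Its brightest probe (ILMN_2634083) had a lowest, median and highest level of 9.0, 9.31 and 9.63 in saline controls and 10.05, 10.71 and 11.13 in EXT9-treated mice. All 6 treated mice lay above all 6 controls, and *Cdkn1a* was 2.58-fold higher on all arrays (log2 change 1.37 ± 0.13, SE, n = 6 per group; limma adjusted p = 1.97e-06) and 2.86-fold in the second run (1.51 ± 0.16, n = 3 and 6; adjusted p = 8.08e-05). The other *Cdkn1a* probes, ILMN_2846775 and ILMN_2846776, rose by 0.85 and 0.78 on all arrays and by 1.08 and 0.89 in the second run, and each of the 3 was called in both fits whichever mouse was left out. *Phlda3*, an inhibitor of Akt at the membrane, rose by 0.49 ± 0.07 and 0.50 ± 0.07, the cyclin *Ccng1* by 0.66 ± 0.11 and 0.55 ± 0.13, and *Zfp365*, which acts at stalled replication forks, by 0.54 ± 0.12 and 0.76 ± 0.12. *Zmat3*, an RNA-binding p53 target, and *Gtse1*, which restrains p53 in G2 phase, rose by 0.31 and 0.30 on all arrays. *Mdm2*, the ubiquitin ligase that degrades p53, was called lower on all arrays (-0.41 ± 0.10, limma adjusted p = 0.00461) and had -0.24 ± 0.12 in the second run (adjusted p = 0.216). Without saline replicate 6 *Mdm2* was called lower in both fits (-0.51 and -0.40; limma adjusted p = 6.63e-05 and 0.028), and 6 of the 19 were then called higher and 2 lower. The median over the 19 genes was 0.11 on all arrays and 0.18 in the second run. On all arrays 7 of the 19 were called higher and 3 lower, and in the second run 8 and 0. Of p53 targets at probes not read for the list, *Sesn1* was called lower and *Dram1* and *Rps27l* higher in both fits.

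Of 14 tested mitosis genes 8 rose and none fell, with a median change of 0.34 and 0.45 over the 14. *Prc1*, which bundles microtubules of the central spindle at cytokinesis, had levels of 7.83, 8.24 and 8.32 (lowest, median, highest) in saline controls and 8.92, 9.14 and 9.39 in EXT9-treated mice. The groups did not overlap, and the change was 0.99 ± 0.10 on all arrays (limma adjusted p = 2.47e-06) and 1.12 ± 0.13 in the second run (adjusted p = 0.000199). *Pbk*, a mitotic kinase, rose by 0.67 and 0.74, the polo-like kinase *Plk1* by 0.43 and 0.55, and the spindle checkpoint kinase *Bub1b* by 0.38 and 0.47. The other members called were *Anln* (contractile ring), *Birc5* (chromosomal passenger complex), *Nusap1* (spindle microtubules) and *Cdk1*, with 0.31 to 0.42 on all arrays and 0.42 to 0.52 in the second run. Without saline replicate 2 or 4, whose mitosis levels were the lowest, 5 and 6 of the 14 were called. EXT9 replicate 3 was the highest mouse, with a mean of 0.35 over the list relative to all arrays, beside 0.0 to 0.1 in the other 5 and -0.42 to -0.14 in the controls.

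The promoters of these genes are shown because 2 short motifs recur in them, the CCAAT box and TTTGAA, the core of the cell cycle genes homology region that binds the DREAM and MuvB complexes. RefSeq held a promoter (GRCm38.p6, 250 bases before to 50 after the start of transcription) for 12 of the 14 tested genes. CCAAT was present on either strand in 9 of the 12 (75%), against 37.9% of 27025 promoters, TTTGAA in 10 (83.3%, against 18.1%) and both in 9 (75%, against 7.12%). Neither motif contains the other. Of the promoters with both, those of *Prc1* (chr7:80294201-80294500, plus strand), *Plk1* (chr7:122159185-122159484, plus strand) and *Bub1b* (chr2:118597961-118598260, plus strand) are given 5′ to 3′ with matches of either strand in capitals, where a match on the opposite strand reads ATTGG or TTCAAA. A match is a description of the letters and not a measured site.
Prc1: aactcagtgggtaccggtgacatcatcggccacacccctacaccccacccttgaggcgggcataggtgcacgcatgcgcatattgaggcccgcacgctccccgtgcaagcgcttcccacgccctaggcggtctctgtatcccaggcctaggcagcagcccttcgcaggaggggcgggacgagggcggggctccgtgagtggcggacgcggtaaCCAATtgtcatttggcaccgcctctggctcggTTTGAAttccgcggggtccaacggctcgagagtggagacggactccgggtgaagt
Plk1: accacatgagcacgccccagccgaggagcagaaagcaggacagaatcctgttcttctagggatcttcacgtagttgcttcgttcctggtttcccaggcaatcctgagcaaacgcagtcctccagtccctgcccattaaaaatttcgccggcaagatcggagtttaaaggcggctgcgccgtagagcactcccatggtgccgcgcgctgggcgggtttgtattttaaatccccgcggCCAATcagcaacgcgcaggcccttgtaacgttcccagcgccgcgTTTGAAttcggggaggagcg
Bub1b: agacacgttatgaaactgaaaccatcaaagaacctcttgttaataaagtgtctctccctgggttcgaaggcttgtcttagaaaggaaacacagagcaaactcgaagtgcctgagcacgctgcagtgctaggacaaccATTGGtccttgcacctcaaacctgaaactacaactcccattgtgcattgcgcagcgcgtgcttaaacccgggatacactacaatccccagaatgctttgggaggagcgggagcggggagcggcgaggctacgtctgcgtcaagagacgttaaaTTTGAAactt

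Among 21 tested genes of DNA replication and nucleotide synthesis, 10 were called higher in both fits and none lower, with medians of 0.24 and 0.31. The largest change was that of CTP synthase, *Ctps*, with levels of 8.99, 9.37 and 9.77 in saline controls and 9.94, 10.19 and 10.46 in EXT9-treated mice (lowest, median, highest). No treated mouse overlapped a control, and the change was 0.83 ± 0.12 and 0.88 ± 0.16 (limma adjusted p = 9.39e-05 and 0.00507). The helicase subunits *Mcm2*, *Mcm4* and *Mcm5* rose by 0.42, 0.24 and 0.58 on all arrays, the transcription factor *E2f1* by 0.46, thymidine kinase *Tk1* by 0.39 and the flap endonuclease *Fen1* by 0.42. *Rrm1*, *Cdc6* and *Gins2*, which supply nucleotides or load and assemble the helicase, rose by 0.18 to 0.28, and *Gins2* had 0.28 in the second run without saline replicate 6 (limma adjusted p = 0.0599). The count fell to 3 without saline replicate 2 and to 5 without replicate 4. At probes not read for the list, the replication gene *Rfc2* was called lower in both fits (ILMN_2749484 and ILMN_2749487). *Gins4* and *Chaf1b* were called higher at such probes. Of the D-type cyclins that drive entry into the cycle, *Ccnd2* and *Ccnd3* rose by 0.65 ± 0.12 and 0.47 ± 0.07 on all arrays and by 0.39 ± 0.11 and 0.48 ± 0.08 in the second run, the only 2 of 18 tested Akt and cyclin D pathway genes called in both fits, and 1 of the 18 was called without saline replicate 2 or EXT9 replicate 4, 5 or 6.

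**Figure D2:**
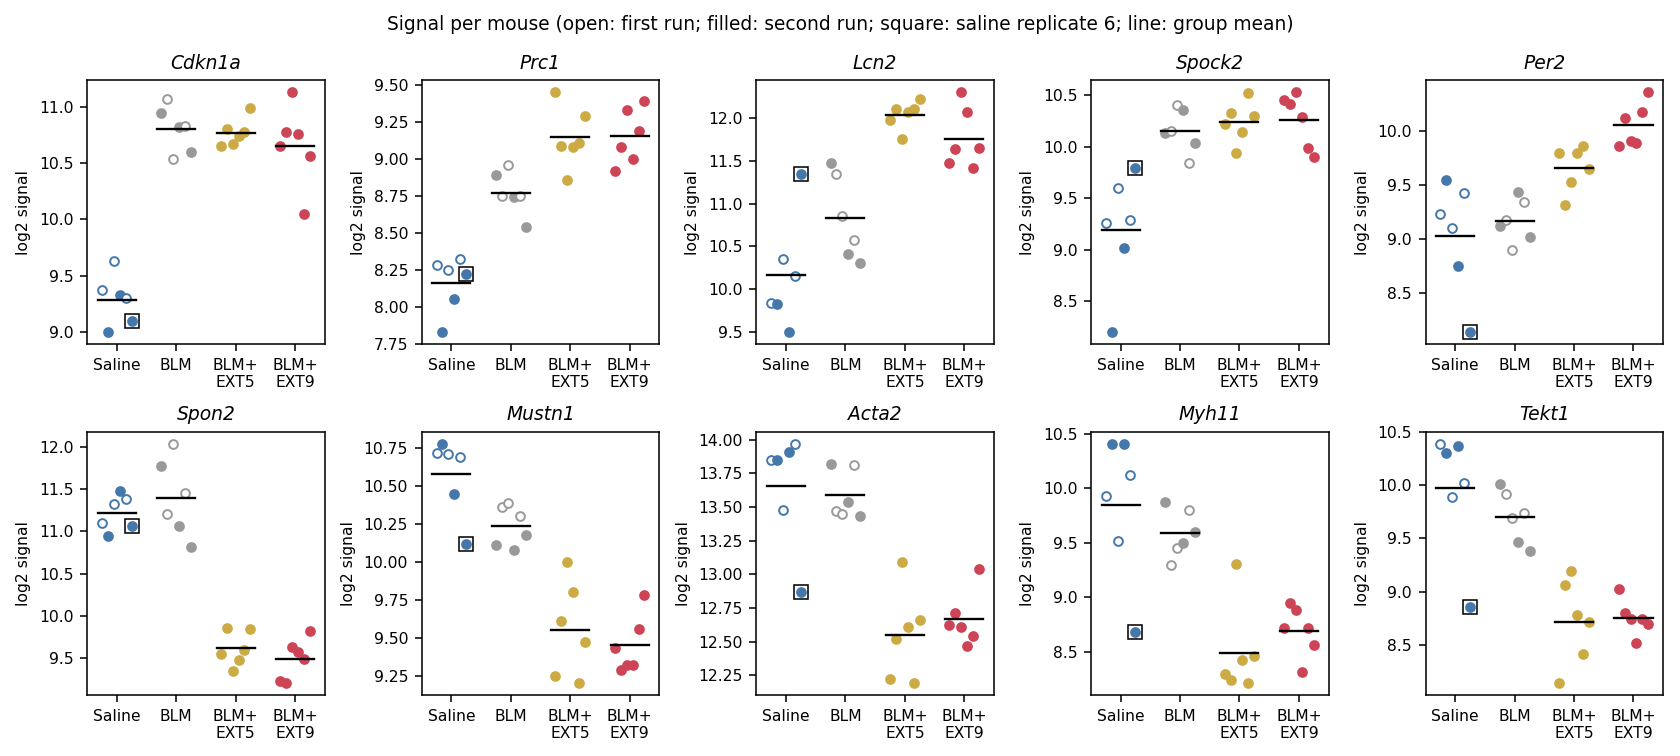
Log2 signal of 10 genes in each of the 24 mice (y axis, a scale per gene) by group (x axis), with open points for the first run, filled points for the second, a square around saline replicate 6 and a line at the group mean. For *Cdkn1a*, *Prc1*, *Lcn2*, *Spock2*, *Per2*, *Spon2* and *Mustn1* the EXT9 and saline points do not overlap, whereas for *Acta2*, *Myh11* and *Tekt1* saline replicate 6 lies among the EXT9 points.

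Of 12 tested markers of alveolar type 1 cells 5 rose in EXT9-treated mice, and all 12 had positive changes in both fits (medians 0.54 and 0.56). *Spock2*, a secreted proteoglycan of type 1 cells, had levels of 8.20, 9.27 and 9.79 in saline controls and 9.90, 10.35 and 10.53 in EXT9-treated mice (lowest, median, highest), without overlap. Its change was 1.07 ± 0.18 on all arrays (limma adjusted p = 0.000416) and 1.26 ± 0.23 in the second run (adjusted p = 0.00608). *Igfbp2*, an IGF-binding protein made by mature type 1 cells, went from 9.48, 9.91 and 10.13 to 10.63, 10.74 and 11.43, again without overlap, and rose by 0.97 ± 0.12 and 1.14 ± 0.14. The other members called were the membrane glycoprotein *Pdpn* (0.73 and 0.88), the receptor *Gprc5a* (0.65 and 0.83) and the water channel *Aqp5* (0.38 and 0.55). The lowest type 1 cell level was that of saline replicate 2, with a mean over the list of -1.03 relative to all arrays, while the other controls had -0.45 to -0.03 and the treated mice 0.02 to 0.25. Without that replicate 4 of the 12 were called in both fits and the second-run median was 0.34, while 10 were called without saline replicate 6. Mesothelial genes, which cover the lung surface, were also lowest in saline replicate 2 (-1.37 beside -0.39 to 0.74 in the other controls), and none of 6 tested was called in either fit. The part of mesothelial content in the type 1 cell values was not tested.

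Type 2 cell markers were called higher in 4 of 15 cases and lower in none, with medians of 0.39 and 0.41. The list member *Lyz1*, whose probes are described below, was called lower on all arrays but not in the second run. *Lcn2*, an iron-siderophore binding lipocalin of injured epithelium and myeloid cells, had levels of 9.50, 9.99 and 11.34 in saline controls and 11.42, 11.65 and 12.30 in EXT9-treated mice. The highest control was replicate 6 and still lay below every treated mouse, and the change was 1.59 ± 0.24 (3.01-fold; limma adjusted p = 0.000159) and 1.54 ± 0.32 (2.9-fold; adjusted p = 0.0113). *Napsa*, an aspartic protease that processes surfactant protein B, rose by 1.05 ± 0.17 and 1.07 ± 0.20, the surfactant protein *Sftpa1* by 0.51 and 0.68 and the alarmin *Il33* by 0.69 and 0.86. *Sftpc* was called in neither fit (-0.28 ± 0.13 and 0.01 ± 0.09). Without saline replicate 2 or 4, 1 of the 15 was called in both fits. Without saline replicate 6 the numbers were 7 higher and 1 lower (*Lyz1*), and the second-run median was 0.72. Of basement membrane genes, the laminin chain *Lamb3* (0.95 and 1.08) and the collagen chain *Col4a4* (0.55 and 0.57) were called higher, 2 of 19 tested, and 5 were called higher and 2 lower without saline replicate 6.

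Of the 15 genes that rose most and were called in both fits, those outside the lists described so far included *Clec4n* (dectin-2, a fungal pattern receptor of myeloid cells), *Rgcc* (a regulator of the cell cycle induced by complement), *Tnfrsf12a* (the receptor of the cytokine TWEAK), *Dusp8* (a MAP kinase phosphatase) and *Gal* (the neuropeptide galanin). *Rgcc* had levels of 10.23, 10.94 and 11.27 in saline controls and 11.69, 12.15 and 12.43 in EXT9-treated mice, with no overlap and a change of 1.24 ± 0.17 and 1.39 ± 0.17 (limma adjusted p = 5.8e-05 and 0.000361). *Dusp8* went from 7.64, 7.72 and 8.12 to 8.39, 8.81 and 9.01 and also did not overlap (0.99 ± 0.14 and 1.08 ± 0.17). The change of *Clec4n* was 1.27 ± 0.24 and 1.33 ± 0.27, that of *Tnfrsf12a* 1.04 ± 0.15 and 1.08 ± 0.20, and that of *Gal* 0.98 ± 0.20 and 1.07 ± 0.21. For *Gal* alone of the 15 genes that rose most did the groups overlap, as saline replicate 6 reached 8.24.

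Macrophage markers were called higher in 3 of 14 cases, *Lyz2* (0.95 ± 0.21 and 0.93 ± 0.27), the chitinase-like *Chil3* (0.85 ± 0.26 and 1.09 ± 0.28) and *Krt79* (0.70 ± 0.15 and 0.75 ± 0.17), with 0 of the 14 called without saline replicate 2 or 4 and 1 without EXT9 replicate 3, 4 or 5. The chemokine *Cxcl16* rose by 0.71 ± 0.10 and 0.83 ± 0.11 and did not overlap between the groups. It was the only 1 of the 20 chemokines and cytokines of the list called in both fits, although 4 were called higher and 1 lower without saline replicate 6. Of chemokine probes not read for the list, those of *Ccl7* and *Ccl12* were called higher and those of *Ccl21c* lower in both fits. The peptide-loading chains *H2-DMb1* and *H2-DMb2* rose by 0.31 and 0.59 on all arrays, 2 of 10 MHC class II genes, which became 0 without saline replicate 2 or 4 and 4 without replicate 6. Of the interferon-induced genes *Ifit3* rose (0.67 ± 0.10 and 0.52 ± 0.11) and *Ifit2* fell (-0.43 ± 0.09 and -0.44 ± 0.12), 2 of 15 tested, and neither was called in both fits without saline replicate 2. Without replicate 6 *Ifit2* had -0.27 in the second run (limma adjusted p = 0.163). No marker of neutrophils (7 tested), T cells (12) or B cells (8) was called in both fits, and T and B cell levels were highest in saline replicate 6. The transcription factor *Tbx21* (T-bet) fell by 0.27 and 0.30, 1 of 8 NK and cytotoxic cell genes. It had -0.23 in the second run without saline replicate 6 (limma adjusted p = 0.121). Its mean in EXT9-treated mice was 6.75, close to the mean of the dimmest probe kept (6.705). The syndecan *Sdc1* rose by 0.37 and 0.42, 1 of 3 plasma cell genes, which epithelium also expresses. The 3 probes of lysozyme 1, a member of the type 2 cell list named after its values were seen, disagreed. *Lyz1* probes ILMN_1247933 (1.77 and 1.64) and ILMN_2736867 (0.69 and 0.92) were called higher in both fits, while the brightest, ILMN_2878071, was called lower on all arrays (-0.37) and had -0.26 in the second run (limma adjusted p = 0.008 and 0.0836). Without saline replicate 6 the brightest *Lyz1* probe was called lower in both fits, at -0.42 and -0.33 (limma adjusted p = 0.00251 and 0.0373). *Lyz1* and *Lyz2* are near-identical neighbours, and their probes could bind RNA of both.

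Red cell genes were higher, namely *Alas2*, the first enzyme of heme synthesis in erythroid cells, and the globins *Hba-a1* and *Hbb-b2*, 3 of 6 erythroid genes tested. *Alas2* had levels of 8.32, 8.88 and 10.10 in saline controls and 10.25, 10.51 and 11.31 in EXT9-treated mice, without overlap (1.59 ± 0.27 and 1.27 ± 0.30; limma adjusted p = 0.000348 and 0.0223). The globin *Hbb-bs*, named by its size of change, was called higher at 1 of its 6 probes, ILMN_2544056 (1.26 ± 0.23 and 1.10 ± 0.26). The other 5, all brighter, were called in neither fit, and the brightest, ILMN_2545963, had 0.19 and 0.03 (limma adjusted p = 0.172 and 0.838). Without saline replicate 2 none of the 6 was called in both fits, and without replicate 4 only 1 was.

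Of 11 tested clock genes 3 rose and 1 fell. *Per2*, a repressor of the circadian loop, had levels of 8.14, 9.16 and 9.55 in saline controls and 9.86, 10.01 and 10.36 in EXT9-treated mice, and the lowest treated mouse lay above the highest control. It rose by 1.02 ± 0.17 on all arrays (limma adjusted p = 0.000334) and 1.24 ± 0.21 in the second run (adjusted p = 0.00361). *Ciart*, another repressor, rose by 0.86 ± 0.12 and 1.05 ± 0.12 and *Per1* by 0.84 ± 0.24 and 1.22 ± 0.24, while the activator *Arntl* (Bmal1) went from 7.0, 7.28 and 7.52 to 6.71, 6.77 and 6.88 and fell without overlap (-0.48 ± 0.06 and -0.38 ± 0.07). All of these but *Per1* stayed called in both fits whichever mouse was left out. Treated levels of *Arntl* lay close to 6.705, the mean of the dimmest probe kept. The hours at which mice were killed are not given in the sources used here. Glucocorticoid-induced genes were called in 3 of 14 cases, all higher: the transcription factor *Zbtb16*, from 6.82, 7.14 and 7.22 to 7.68, 8.20 and 8.26 (0.98 ± 0.15 and 0.98 ± 0.19), the receptor co-chaperone *Fkbp5* (0.72 ± 0.11 and 0.77 ± 0.15) and the kinase *Sgk1* (0.60 ± 0.16 and 0.79 ± 0.14), of which the first 2 did not overlap. The immediate early genes *Jun* and *Jund* rose by 0.78 and 0.49 on all arrays, 2 of 15 tested, and 0 were called without saline replicate 2. *Jund* had 0.45 in the second run without saline replicate 6 (limma adjusted p = 0.073).

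The E-box CACGTG, the site at which Bmal1 and Clock bind, was searched on both strands of the promoters of the clock genes and was present in 3 of 9 (33.3%), against 7.24% of all 27025. Among the 3 were those of *Ciart* (chr3:95882179-95882478, minus strand) with 3 copies and *Per1* (chr11:69098699-69098998, plus strand) with 1, both higher in EXT9-treated mice, and these are printed with the motif in capitals.
Ciart: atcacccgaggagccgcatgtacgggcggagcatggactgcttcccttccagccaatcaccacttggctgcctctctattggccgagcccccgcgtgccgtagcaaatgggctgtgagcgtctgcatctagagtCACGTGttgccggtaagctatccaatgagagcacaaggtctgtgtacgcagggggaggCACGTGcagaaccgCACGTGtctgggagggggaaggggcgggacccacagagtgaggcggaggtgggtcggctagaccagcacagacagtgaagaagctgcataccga
Per1: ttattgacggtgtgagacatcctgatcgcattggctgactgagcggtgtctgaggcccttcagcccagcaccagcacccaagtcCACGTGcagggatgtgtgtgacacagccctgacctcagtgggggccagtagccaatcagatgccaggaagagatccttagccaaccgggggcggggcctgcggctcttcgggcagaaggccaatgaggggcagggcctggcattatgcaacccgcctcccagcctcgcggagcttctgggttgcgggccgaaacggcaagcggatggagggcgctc

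**Figure D3:**
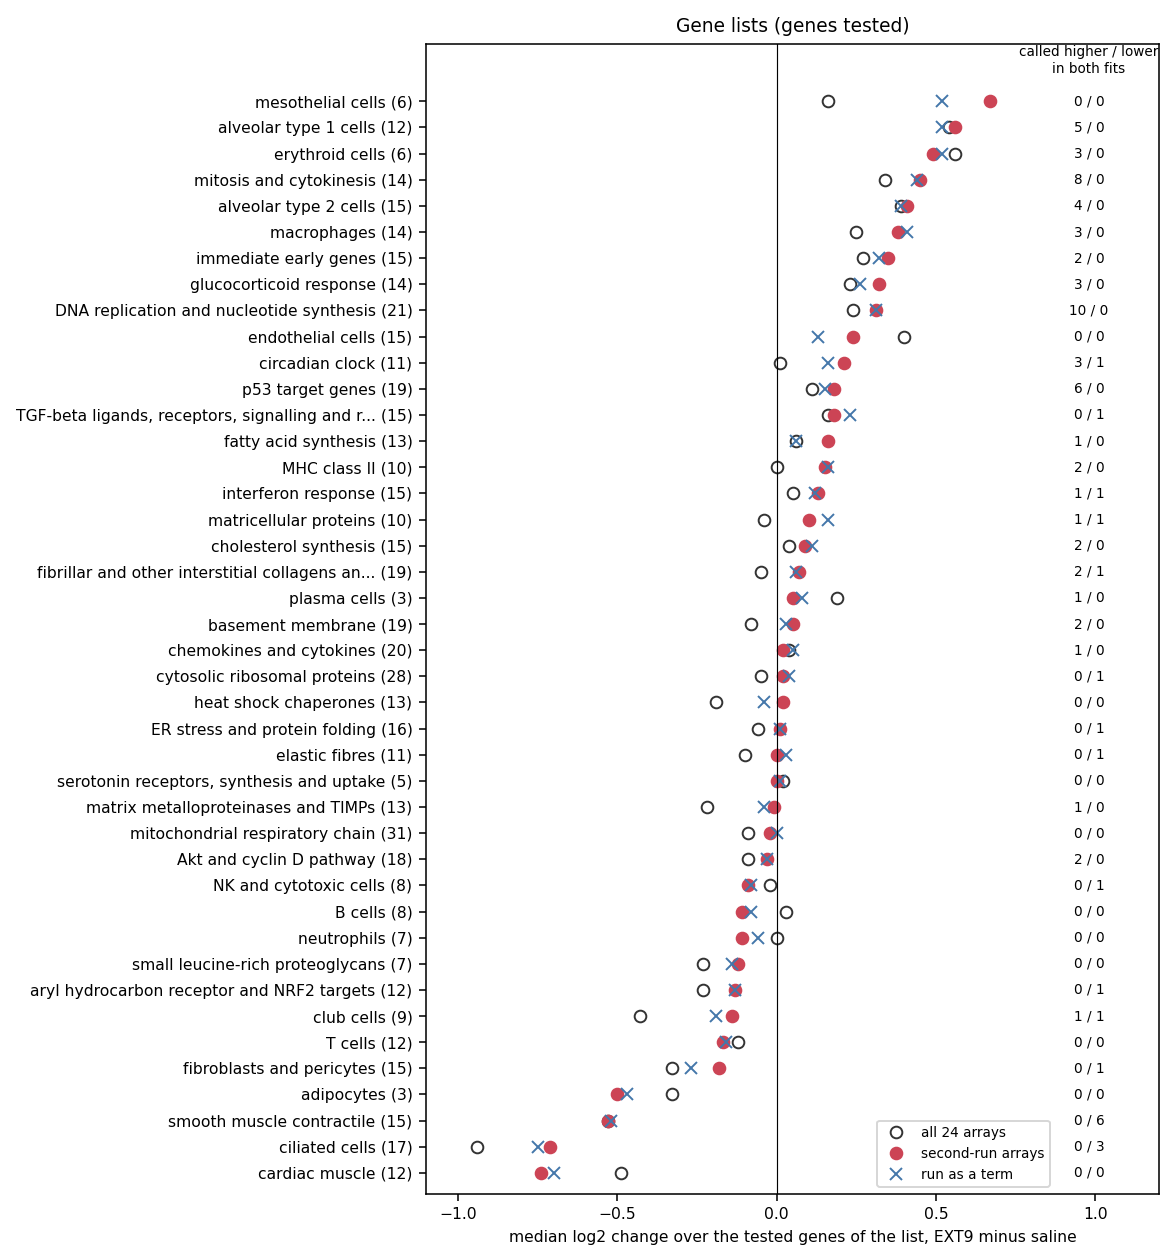
Median log2 change over the tested genes of each of the 42 gene lists (x axis; number of genes in brackets), for EXT9-treated mice against saline controls on all arrays (open points), second-run arrays (red) and with the run as a term (crosses), with the number of members called higher and lower in both fits at the right. The ciliated, smooth muscle and cardiac lists lie lowest, at -0.71, -0.53 and -0.74 in the second run.

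The largest decrease called in both fits was that of *Spon2* (ILMN_1229547), a secreted matrix protein of the F-spondin family also known as mindin. Saline controls had a lowest, median and highest level of 10.95, 11.22 and 11.48, and EXT9-treated mice 9.20, 9.53 and 9.82. Every treated mouse lay more than 1 log2 unit below every control, saline replicate 6 included, and *Spon2* was 3.31-fold lower on all arrays (log2 change -1.73 ± 0.16; limma adjusted p = 1.77e-06) and 3.19-fold lower in the second run (-1.68 ± 0.19; adjusted p = 0.000183). Of the other 9 matricellular genes tested, *Ccn2*, a connective tissue growth factor, was called in both fits and was higher (0.55 ± 0.14 and 0.74 ± 0.17).

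Matrix and fibroblast genes showed few calls, in both directions. Of 19 interstitial collagen and crosslinking genes, *Col6a1* (0.33 and 0.43) and *Col6a2* (0.30 and 0.41), chains of the microfibrillar collagen VI, were called higher and *Loxl1*, which crosslinks elastin, lower. No member was called higher without saline replicate 1, 2 or 4 or EXT9 replicate 2 or 3, while 4 were without EXT9 replicate 1, and *Loxl1* was called in 8 of the 12 fits that left out 1 mouse. *Loxl1* had levels of 11.70, 12.18 and 12.30 in saline controls and 11.22, 11.37 and 11.54 in EXT9-treated mice, without overlap (-0.72 ± 0.14 and -0.55 ± 0.15; limma adjusted p = 0.00102 and 0.035). The elastic fibre component *Ltbp4* went from 11.50, 12.15 and 12.27 to 11.05, 11.31 and 11.42, also without overlap (-0.71 ± 0.12 and -0.53 ± 0.15), the only 1 of 11 elastic fibre genes called in both fits, and none was without saline replicate 2 or any 1 of EXT9 replicates 2 to 6. *Col1a1* had -0.08 ± 0.17 and 0.03 ± 0.23 and *Col3a1* -0.01 ± 0.26 and 0.54 ± 0.20, neither called in either fit, and with the run as a term *Col3a1* had 0.52 and was called (adjusted p = 0.0411 from limma). The fibroblast collagen *Col13a1* fell by 0.64 and 0.64, 1 of 15 fibroblast and pericyte genes, which became 4 without saline replicate 6 and 0 without replicate 2 or 4. The mean of *Col13a1* in EXT9-treated mice was 6.72, close to that of the dimmest probe kept (6.705). The inhibitor *Timp1* rose by 0.54 and 0.78. The proteoglycan *Dcn* was called lower on all arrays (-0.45 ± 0.15, adjusted p = 0.0302 in limma) and had -0.41 ± 0.20 in the second run (adjusted p = 0.236). *Tgfb1* was called higher on all arrays (0.35 ± 0.09, limma adjusted p = 0.00799), with 0.35 ± 0.13 in the second run (adjusted p = 0.101), and its co-receptor *Tgfbr3* fell by 0.52 and 0.63. Without saline replicate 6 *Tgfb1* was called higher in both fits (0.42 and 0.51; limma adjusted p = 0.000947 and 0.0111), and of the 15 genes of the TGF-beta list 2 were then called higher and 2 lower.

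Of 15 tested smooth muscle contractile genes 6 fell and none rose, with a median of -0.53 in each fit, and 14 had negative changes. *Myl9*, the regulatory myosin light chain, had levels of 9.81, 10.70 and 10.85 in saline controls and 9.05, 9.38 and 9.50 in EXT9-treated mice, and the groups did not overlap, although saline replicate 6 was the lowest control. The change was -1.20 ± 0.17 on all arrays (limma adjusted p = 0.000101) and -1.15 ± 0.23 in the second run (adjusted p = 0.00891). *Acta2*, smooth muscle actin, was measured by 4 probes that were all called lower in both fits, by 0.99 to 1.51 on all arrays and 0.88 to 1.31 in the second run. Its brightest probe had levels of 12.87, 13.85 and 13.97 and 12.47, 12.62 and 13.04, and saline replicate 6 at 12.87 lay within the treated range. The myosin heavy chain *Myh11* fell by 1.16 and 1.14, the actin filament protein *Lmod1* by 0.70 and 0.69, *Cald1* by 0.53 and 0.40 and *Myocd*, the coactivator of this gene set, by 0.37 and 0.55. The count of 6 was 11 without saline replicate 6, 0 without replicate 2 and 1 without replicate 4. *Mustn1*, a gene of the musculoskeletal system, and the ubiquitin ligase subunit *Asb2*, both outside the list, did not overlap between the groups. *Mustn1* went from 10.12, 10.70 and 10.78 to 9.29, 9.38 and 9.78 (-1.13 ± 0.13 and -1.0 ± 0.17) and *Asb2* from 7.92, 8.71 and 8.87 to 7.16, 7.42 and 7.51 (-1.20 ± 0.14 and -1.04 ± 0.17), and both stayed called in both fits whichever mouse was left out.

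A CArG box, the site of serum response factor that Myocd activates, was found on either strand in 1 of 11 matched smooth muscle promoters (9.09%, against 1.57% of all), that of *Myl9* (chr2:156775214-156775513, plus strand), with the box in capitals.
Myl9: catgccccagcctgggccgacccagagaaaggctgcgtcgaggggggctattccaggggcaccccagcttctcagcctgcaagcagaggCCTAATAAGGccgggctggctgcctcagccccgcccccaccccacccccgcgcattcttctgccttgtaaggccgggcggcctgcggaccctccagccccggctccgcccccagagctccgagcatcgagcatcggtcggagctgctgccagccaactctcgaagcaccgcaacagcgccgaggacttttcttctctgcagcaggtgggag

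As a mean over 17 tested genes of ciliated airway cells, EXT9-treated mice lay below saline replicates 1 to 5 but not below saline replicate 6. *Tekt1*, a tektin of the ciliary axoneme, had levels of 10.39, 10.30, 9.89, 10.37 and 10.02 in saline replicates 1 to 5, 8.86 in replicate 6 and 8.52, 8.74 and 9.03 (lowest, median, highest) in EXT9-treated mice. It fell by 1.22 (limma adjusted p = 0.000351) and 1.09 (adjusted p = 0.0283), and without saline replicate 6 by 1.44 and 1.58 (adjusted p = 4.71e-07 and 0.000152). *Rsph4a*, a radial spoke protein, fell by 1.32 and 1.12, and the dynein chain *Dnaic1* by 0.90 and 0.72. All 17 tested genes of the list had negative changes, with medians of -0.94 and -0.71. Over all 11782 genes, 7707 were negative on all arrays and 5947 in the second run. Of the 17, 16 were called on all arrays but 3 in both fits. Without saline replicate 6 all 17 were called in both fits (medians -1.18 and -1.15), and without replicate 2 or 4 none was. As a mean over the list relative to all arrays, saline replicates 1 to 5 had 0.56 to 0.88, replicate 6 had -0.51 and the treated mice -0.48 to -0.22.

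**Figure D4:**
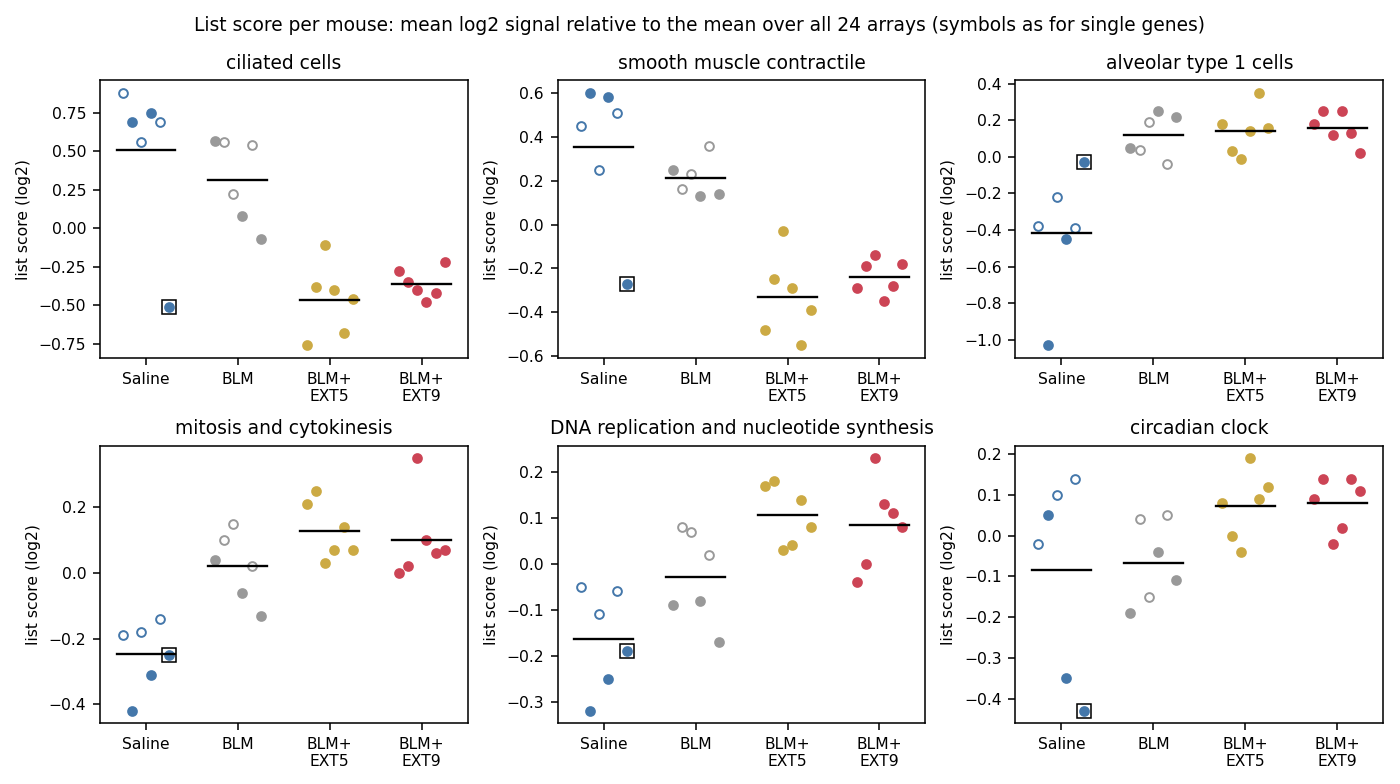
Mean log2 signal of 6 gene lists in each of the 24 mice, relative to the mean over all arrays (y axis, a scale per list), by group (x axis), with open points for the first run, filled points for the second, a square around saline replicate 6 and a line at the group mean. In the ciliated and smooth muscle panels saline replicate 6 lies with the EXT9-treated mice (-0.51 and -0.27), whereas in the mitosis panel it lies with the other controls (-0.25).

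Of the 15 genes that fell most, 8 others showed the same order of mice. *Hp* (haptoglobin), *Pigr* (the polymeric immunoglobulin receptor), *Gabrp* (a GABA-A receptor subunit) and *Cp* (the ferroxidase ceruloplasmin) fell by 1.33, 1.41, 1.19 and 1.05 on all arrays and by 1.11, 1.0, 1.15 and 1.02 in the second run. *Hp* was read at ILMN_2668510, and its brightest probe, ILMN_2944824, was called lower on all arrays only (-0.39 and -0.25; limma adjusted p = 0.0406 and 0.408). Without saline replicate 6 the second-run values of *Hp* and *Gabrp* were -1.71 and -1.74. Saline replicate 6 lay within the treated range for each of the 4, while the other 5 controls lay above every treated mouse. The amine oxidases *Aoc1* (which degrades histamine) and *Aoc3* (vascular adhesion protein 1) fell by 1.45 and 1.32 on all arrays and by 1.35 and 1.27 in the second run, with saline replicate 6 again within the treated range. *Riiad1* and *Pcp4l1* showed the same order, with -1.18 and -1.17 on all arrays. Among 9 club cell genes, *Cyp2b10*, a cytochrome P450, rose (0.37 ± 0.07 and 0.40 ± 0.10) and *Gabrp* was the only member that fell, beside 3 without saline replicate 6. Of the 15 genes that fell most, the groups did not overlap for 4, and 3 (*Spon2*, *Asb2* and *Mustn1*) stayed called in both fits whichever mouse was left out. The corresponding numbers for the 15 genes that rose most were 14 and 10. Both sets of 15 were picked by size of change in these same values, which favours groups that do not overlap. Over all tested probes, the treated mice lay above every control at 1.38% and below every control at 3.57%. Of the probes called in both fits, 229 of 504 higher and 396 of 660 lower did not overlap.

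Other gene lists held few or no calls at the probes read. Cardiac muscle genes, which the pulmonary veins of mice express, had medians of -0.49 and -0.74 with none of 12 called in both fits, and without saline replicate 4, the highest control, the medians were -0.13 and 0.01, while 2 were called lower without saline replicate 6. The lists of endothelial genes (15 tested), heat shock chaperones (13), mitochondrial respiratory chain genes (31) and small leucine-rich proteoglycans (7) had no call in both fits, although 2 heat shock chaperones were called lower without saline replicate 6. At probes not read for these lists, the respiratory chain genes *CYTB*, *ND4* and *Ndufv3* were called lower and *Ndufs6* higher in both fits. The small heat shock gene *Hspb6* was called lower and *Hspb8* higher. The glutathione transferase *Gstm1* fell by 0.79 and 0.56, the ER-associated degradation factor *Sel1l* by 0.32 and 0.31 and the ribosomal protein *Rpl30* by 0.36 and 0.42. Each was the single call of its list at the probes read. At probes not read for the lists, *Gstm2*, *Gstp1*, *Gstt3*, *Gstk1*, *Cbr1*, *Cbr3*, *Ugt1a6a* and *Ugt1a6b* were also called lower in both fits. Of ribosomal protein genes at such probes, *Rpl23*, *Rpl27a* and *Rpl36a* were called lower and *Rps27l* higher. Without saline replicate 6, 5 of the 12 aryl hydrocarbon receptor and NRF2 targets to which *Gstm1* belongs were called lower, and without replicate 2 or 4 none was. *Pmvk* and *Fdps*, enzymes of the mevalonate pathway, rose by 0.50 ± 0.07 and 0.56 ± 0.11 on all arrays and 0.53 ± 0.09 and 0.53 ± 0.14 in the second run, and the lipogenic factor *Srebf1* by 0.21 and 0.23. Of the 15 cholesterol synthesis genes, 2 were called in both fits, 6 higher and 1 lower without saline replicate 6, and 1 without replicate 2 or 4. The cholesterol synthesis gene *Sqle* was called lower in both fits at a probe not read for the list (ILMN_2600348). Of 16 genes for serotonin receptors, synthesis and uptake, 5 passed the filter on dim probes and none was called. *Htr2b*, which encodes the receptor that EXT9 blocks, had levels of 6.57, 6.76 and 6.86 in saline controls and 6.67, 6.88 and 6.92 in EXT9-treated mice, close to the filter at 6.705, with overlapping groups and changes of 0.07 ± 0.06 and 0.11 ± 0.07 (limma adjusted p = 0.339 and 0.383).

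Levels in the BLM and EXT5 groups are set beside these, with the same saline controls. BLM replicates 2, 3 and 5 lie in the first run. BLM replicates 1, 4 and 6 lie in the second, with all EXT5 arrays, and only these BLM arrays enter the second-run fit. Mean levels of saline and BLM therefore mix the runs, and sorted first-run values were higher by a median of 0.0945 on the log2 scale. Mean levels of *Cdkn1a* were 9.29 in saline controls, 10.80 in BLM-treated mice, 10.77 with EXT5 and 10.66 with EXT9. On all arrays EXT9 differed from BLM by -0.14 ± 0.13 (limma adjusted p = 0.493). *Igfbp2* and *Spock2* likewise had 10.81 and 10.16 in BLM-treated mice and 10.87 and 10.26 with EXT9, and were not called between these groups. *Prc1* had 8.77 and 9.15 and was called higher with EXT9 than with BLM on all arrays (adjusted p = 0.0202 from limma) but not in the second run (adjusted p = 0.0821). *Spon2* stood at 11.39 in BLM-treated mice, 9.61 with EXT5 and 9.49 with EXT9, and EXT9 was lower than BLM in both fits (-1.90 and -1.73; limma adjusted p = 5.24e-07 and 0.000265). Genes called lower with EXT9 than with BLM in both fits included *Mustn1*, *Asb2*, *Acta2*, *Hp* (ILMN_2668510) and *Arntl*. Those called higher included *Rgcc*, *Per2*, *Ciart*, *Napsa*, *Gal*, *Cxcl16* and *Pmvk*. List members were called besides these. On all arrays and in the second run, 3 and 3 type 2 cell markers were called higher than with BLM and 1 and 0 lower. For MHC class II genes 3 and 2 were called higher, and for p53 target genes 2 and 1 lower. Over all probes EXT9 and BLM differed at 2303 (10.4%) on all arrays, 495 (2.24%) in the second run and 1107 (5%) with the run as a term.

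EXT5 and EXT9, both given at 30 mg/kg, differed at 34 probes (0.154%) on all arrays and 29 (0.131%) in the second run, with 2079 and 2551 at an unadjusted p under 0.05. *Phlda3* was lower with EXT9 by -0.40 ± 0.07 (ILMN_2923607; limma adjusted p = 0.0374), while its other probe, ILMN_2628567, had -0.18 ± 0.09 (adjusted p = 0.536). *Dusp8* was higher with EXT9 at ILMN_2416218 (0.52 ± 0.10; limma adjusted p = 0.0374) and had 0.55 ± 0.14 at its brighter probe (adjusted p = 0.145). No other gene named above was called between the compounds on all arrays or in the second run at its brightest probe, which does not show that they act alike: the 95% interval of the difference on all arrays, not adjusted for the number of probes, ran from -0.39 to 0.15 for *Cdkn1a*, from -0.45 to 0.21 for *Spon2*, from -0.21 to 0.45 for *Acta2* and from 0.04 to 0.74 for *Per2*. EXT5 and EXT9 are known here by code names only, and their structures are not compared.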

How the data were processed

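RNA of distal lung was hybridized to Illumina MouseWG-6 v2 BeadChips, 1 array per mouse. The authors deposited quantile normalized intensity values for 24 arrays, on a linear scale and normalized within 2 sets of arrays, taken here as the array runs from their shared sorted values. Background correction and software are not given in the sources used here. A second table was not used, since its 48 columns carry no sample names. Log2 was taken here without a pseudocount, 738 rows displaced between the runs (5 stretches) were left out, and the 50% of probes with the highest mean were kept. Groups came from the labels. Group means were fitted in limma 3.58.1 (R 4.3.3) with Benjamini-Hochberg adjustment. Intervals are 95%.

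Symbols came from the platform annotation: 34885 probes had 1 symbol, 18 several and 10378 none. The members and the 42 gene lists (728 genes, of which 557 were tested, 95 fell below the filter, 68 had no probe and 8 lay in displaced rows) were chosen with earlier results of these data known. Each gene was read at its probe with the highest mean, and genes ranked by change at the brightest of their probes called in both fits, which for *Hp* and *Hbb-bs* is not the brightest of all. Named were the 15 genes that rose and the 15 that fell most among those called in both fits, ranked by the smaller of both changes, up to 4 members per list with the smallest second-run p, and genes of the study's pathway. Further members called in both fits and *Col1a1*, *Col3a1*, *Sftpc*, *Mdm2* and *Lyz1* were named after their values were seen. The fits were tested on simulated data. Alternatives were median centring, joint quantile normalization, other filters, a pseudocount of 16, array weights, the run or the replicate number as a term, SAM (100 permutations) and leaving out each mouse.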

Additional observations from a re-analysis of the deposited data

Results flagged for a closer look

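In 28 of 300 groups of 6 mice the highest or lowest value lay far from the others, with a gap to its neighbour, as a share of the group's range, above Dixon's 95% critical value for 6 values. Chance gives about 1 in 20 such groups, and values of 1 mouse are not independent of each other. Saline replicate 6 had the lowest control value of *Hp* (gap 0.872 of the range; 11.38, next 12.95), *Riiad1* (0.772), *Rsph4a* (0.77), *Pigr* (0.714), *Tekt1* (0.673), *Col1a1* (0.672) and *Gabrp* (0.654). Its mean over ciliated cell genes was low as well (0.77), as was that over aryl hydrocarbon receptor and NRF2 targets (0.75), while its B cell mean was high (0.641). Saline replicate 4 was high in adipocyte genes (0.835; a mean of 1.26 relative to all arrays, next -0.11). Saline replicate 2 was low in TGF-beta genes (0.636) and fatty acid synthesis genes (0.633).

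Among EXT9-treated mice, replicate 3 was high in mitosis genes (0.714; 0.35, next 0.10), *Cdk1* (0.66), club cell genes (0.836; 0.31, next -0.30), *Clec4n* (0.656) and *Col1a1* (0.627) and low in *Ifit3* (0.667). Replicate 1 was high in *Gstm1* (0.746) and T cell genes (0.771) and low in *Mcm2* (0.661). Replicate 2 was high in *Alas2* (0.679; 11.31, next 10.59) and interferon response genes (0.667). Replicate 5 was low in *Gtse1* (0.682). Replicate 6 was high in *H2-DMb1* (0.657) and low in *Lyz2* (0.72; 13.54, next 14.21) and *Rpl30* (0.629).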

How the results depend on the processing

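The number of arrays, with 3 saline controls in the second run, limits these results, and the arrays are separate mice by the labels. All counts are of probes called, 5186 on all arrays, 1403 in the second run and 1164 in both fits. Counts moved by more than 1.5 times with the brightest 25% of probes (3253 on all arrays), array weights (9040 on all arrays, 3264 in the second run, 2470 in both), the compared groups fitted alone (325 in the second run, 278 in both) and SAM at q = 0 (666 on all arrays). Leaving out 1 mouse gave 3686 to 6186 on all arrays, 337 to 2955 in the second run and 271 to 2426 in both, with the extremes of the last set by saline replicates 2 and 6. Replicate numbers did not pair the mice (correlations of deviations -0.362 to 0.382), and the replicate block gave 4995 on all arrays, 747 in the second run and 630 in both, and for EXT9 against EXT5 5 in place of 34. With the run as a term, EXT9 against BLM gave 1107 in place of 2303 and EXT9 against EXT5 100. Of 4720 values of named genes under an alternative, 19 changed sign, and 1 of them was called. *Col3a1* on all arrays had 0.043 after centring, 0.075 after joint quantile normalization, 0.517 with the run as a term and -0.136 to 0.113 when 1 mouse was left out. *Col1a1* on all arrays had 0.003 after joint quantile normalization and 0.012 with the run as a term, and in the second run -0.095 with array weights and -0.115 to 0.13 when 1 mouse was left out. *Sftpc* in the second run had -0.101 to 0.09 when 1 mouse was left out. Calls of named genes were lost more often than signs changed. With the compared groups fitted alone, without the BLM and EXT5 arrays, 63 second-run values lost their call and 50 kept their status. Without saline replicate 2 these numbers were 64 and 49, without replicate 4 they were 56 and 56, and with the replicate block 38 and 75. Of 1764 list medians under an alternative, 53 moved by more than the spread between replicates. The cause of these changes was not tested.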
